A study of Mus musculus with 15 samples.

Results

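Multiciliated cells are epithelial cells that carry a tuft of motile cilia, each standing on its own centriole. The 10 genes described here are Mcidas, Ccno, Gmnc, Foxj1, Myb, Cdc20b, Deup1, Trp73, Rfx2 and Rfx3, which encode regulators of that cell fate and of the centriole amplification that goes with it. They were taken as a named list, out of 54232 genes in the deposited count table, and the list was proposed with the levels of these genes in the same libraries already known. Their levels and fold changes are therefore given as a description, without p-values. All 10 passed the filter on low counts, which left 22151 genes for testing.

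The libraries were made from dissected secondary palate of wild-type mice, at days 13.5, 14.5, 15.5 and 16.5 of gestation (written E13.5 and so on) and at birth (P0). Each of the 5 stages had 3 libraries, and for each library the palates of 3 embryos were combined, so replicate error here is the variation among pools of embryos. No strain, sex or treatment is given in the labels. No stage carried a mutation, and stage is the only variable that the labels give.

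The nasal side of the palate becomes part of the ciliated, mucus-secreting lining of the nasal airway. In the known order of events, the geminin-related proteins Gmnc and then Mcidas switch on the multiciliated programme together with E2f4 or E2f5. Ccno, Deup1 and Cdc20b then take part in building many centrioles in a cell that no longer divides. Myb acts early in the programme, while Foxj1, Trp73 and the RFX factors govern the genes of the cilium itself.

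Library totals lay between 21470759 counts (P0 replicate 3) and 69019565 counts (E14.5 replicate 3). Levels are given in CPM, counts scaled to a common library total, with totals scaled by TMM, a normalisation that trims extreme genes. At 3 counts, taken as the detection floor, the libraries reached 0.0421 to 0.131 CPM. The 6 markers of palate mesenchyme, among which Msx1 and Shox2 reached the highest levels, summed to 93.3 to 360 CPM, and none was at 0 at any stage. The 4 Y-linked genes examined summed to 7 to 12 counts in the E16.5 libraries and reached 12808 counts elsewhere, so sex is unevenly spread over the stages. Several libraries stood apart in markers of other tissues. In E14.5 replicates 1 and 3 the 9 choroid plexus markers summed to 1456 and 805 CPM against 37.2 CPM in replicate 2. The choroid plexus is a brain epithelium that is itself multiciliated. In E15.5 replicate 1 the 7 markers of surface epithelium summed to 429 CPM against 1144 and 1700 CPM in replicates 2 and 3. Over all libraries of the series Krt5 and Krt14 reached the highest levels among these markers.

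The order of peaks placed 7 of the 10 regulators at E15.5, by highest stage mean, with 2 at E14.5, 1 at P0 and 0 at E13.5 and E16.5. Gmnc and Rfx3 came earliest, with their highest means at E14.5. Mcidas, Ccno, Cdc20b and Deup1 formed a narrow group at E15.5. In each of the 4 genes all 3 E15.5 libraries lay above all 12 libraries of the other stages. The share of all tested genes that did so was not computed. Between single stages, 24.0% of tested genes had all E15.5 libraries above all E14.5 libraries. For E16.5, 15.5% had all libraries below all E15.5 libraries. The E16.5 means of Mcidas, Ccno, Cdc20b and Deup1 were 14.4%, 20.3%, 20.9% and 21.8% of their E15.5 means. Myb, Foxj1 and Trp73 also had their highest means at E15.5 but retained 42.3%, 64.6% and 77.1% of it at E16.5. Rfx2 came last, with its highest mean at P0, where its libraries overlapped with those of E16.5.

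**Figure D1:**
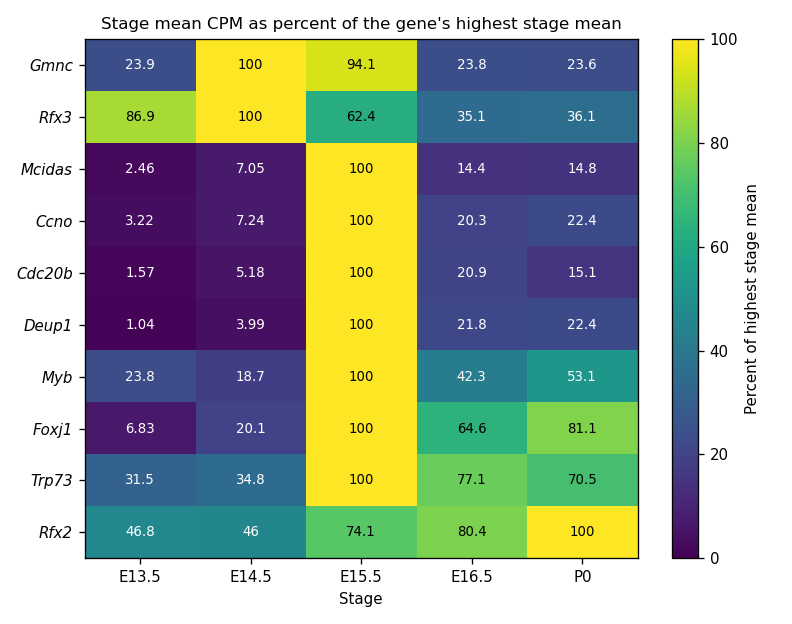
Stage mean CPM of each of the 10 regulators (rows, ordered by the stage of the highest mean) as a percent of that gene's highest stage mean (colour and printed value) over the 5 stages (columns). Mcidas, Ccno, Cdc20b and Deup1 stood at 14.4 to 21.8% a day after their highest stage, Foxj1 and Trp73 at 64.6 and 77.1%.

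The order has limits. Gmnc at E15.5 held 94.1% of its E14.5 mean and the libraries of both stages overlapped. Its highest mean moved to E15.5 when medians were used, when totals were not TMM-scaled, or without E14.5 replicate 1 or E15.5 replicate 1. Without E13.5 replicate 3 or E14.5 replicate 1 the highest mean of Rfx3 moved to E13.5, and without E15.5 replicate 3 that of Trp73 moved to E16.5. Per count of Epcam, an epithelial gene, the highest mean of Rfx2 moved from P0 to E16.5.

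**Figure D2:**
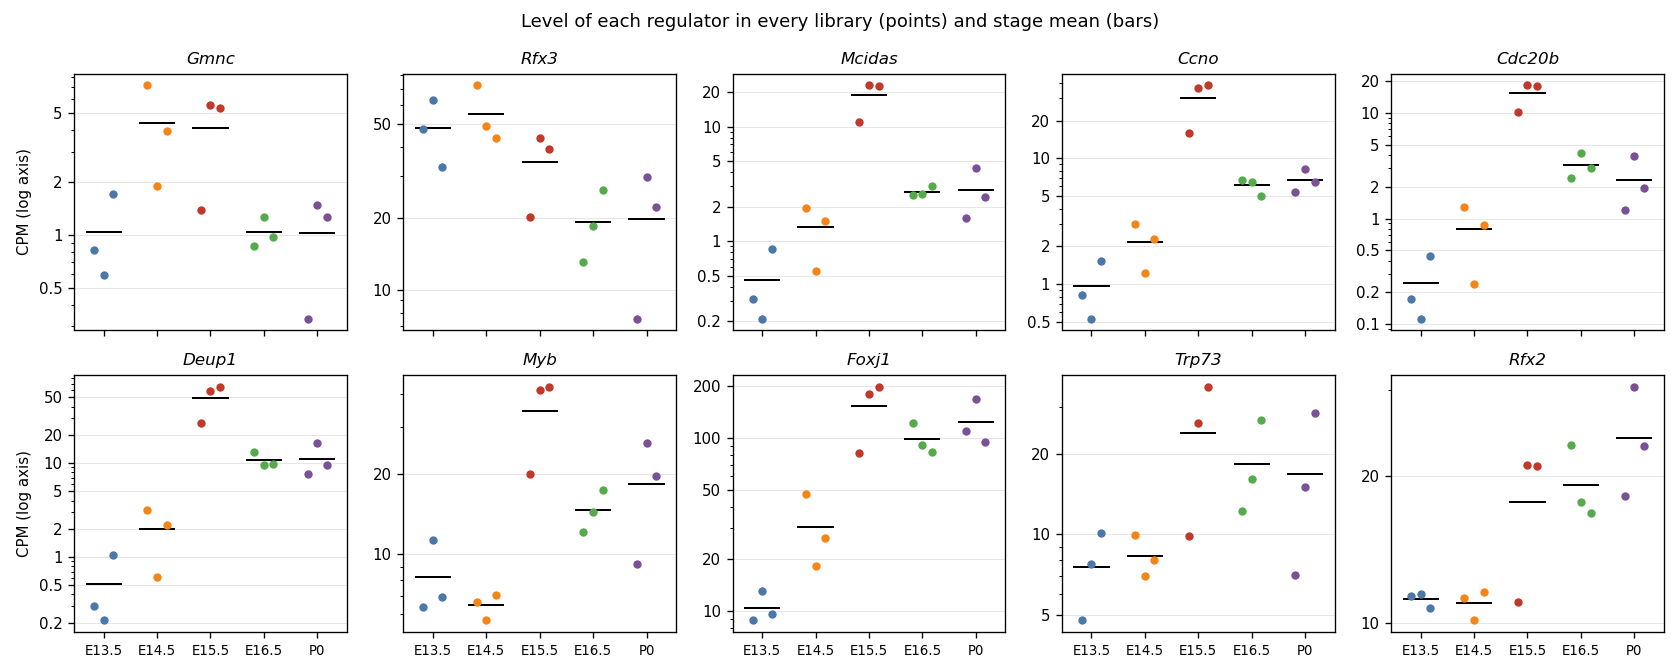
Level of each regulator in CPM (log axis) in the 15 libraries (points, coloured by stage) with the stage mean (black bars). The 3 E15.5 points of Mcidas, Ccno, Cdc20b and Deup1 are above all other points, and E15.5 replicate 1, the leftmost red point, is the lowest of its stage in all 10 panels.

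Gmnc encodes the geminin-like protein that acts at the head of the programme. It measured 0.817, 0.591 and 1.71 CPM at E13.5, 7.19, 1.91 and 3.96 CPM at E14.5, 1.40, 5.56 and 5.34 CPM at E15.5, 0.863, 1.27 and 0.978 CPM at E16.5, and 0.333, 1.49 and 1.26 CPM at P0. The E14.5 libraries were all above those of E13.5, and the E16.5 libraries were all below those of E15.5, within the range of E13.5. The fitted log2 fold change of E14.5 against E13.5 was 2.07 (SE 0.66, 3 libraries per stage), and that of E16.5 against E15.5 was -1.98 (SE 0.66). Gmnc was the lowest of the 10 genes per length at E15.5.

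Mcidas, or multicilin, binds E2f4 and E2f5 and turns on the genes of centriole amplification. Its libraries stood at 0.315, 0.211 and 0.861 CPM at E13.5, 1.95, 0.545 and 1.49 CPM at E14.5, 10.97, 22.9 and 22.6 CPM at E15.5, 2.52, 2.57 and 3.01 CPM at E16.5, and 1.61, 4.33 and 2.44 CPM at P0. The lowest E15.5 library was thus well above the highest library of any other stage. On the log2 scale E15.5 exceeded E14.5 by 3.82 (SE 0.60), and E16.5 differed from E15.5 by -2.80 (SE 0.57). Between E16.5 and P0 the difference was 0.05 (SE 0.55), inside its error.

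The partners of the geminin family were compared next. This list and the later ones were chosen with earlier results of these data known, so their counts and p-values are a description. Of the 6 genes listed (Gmnn, Cdt1, E2f4, E2f5, Tfdp1 and Tfdp2), 0 passed the threshold of an adjusted p below 0.05 for E15.5 against E14.5 in edgeR's quasi-likelihood test with Benjamini-Hochberg adjustment, where 26.1% of all tested genes passed (1 of the 6 had an unadjusted p under 0.05, and DESeq2 passed 1). The median log2 fold change of the list was -0.10, beside 0.03 over all tested genes. E2f4, the transcription factor that Mcidas recruits, stood at 59.0 ± 4.53 CPM at E14.5 and 56.0 ± 1.75 CPM at E15.5 (SD, n = 3). Tfdp1, the dimer partner of the E2F proteins, stood at 120.1 ± 10.3 and 111 ± 9.93 CPM. Against E13.5, E2f5 and Tfdp2 fell by 0.53 and 0.80 on the log2 scale at E15.5 (edgeR adjusted p = 0.0241 and 0.0108), in a comparison that called 22.9% of genes. The call on E2f5 was lost without E13.5 replicate 1 or 2 or E15.5 replicate 1 or 2, and that on Tfdp2 without E13.5 replicate 2. From E15.5 to P0 Tfdp1 fell by 0.66 (edgeR adjusted p = 0.0131; 0.0502 without E15.5 replicate 3).

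Ccno, a cyclin-like protein needed for centriole amplification, lies 3068 bases before Mcidas on chromosome 13. It measured 0.831, 0.535 and 1.54 CPM at E13.5, 3.02, 1.24 and 2.29 CPM at E14.5, 15.9, 36.4 and 38.1 CPM at E15.5, 6.80, 6.50 and 5.06 CPM at E16.5, and 5.46, 8.23 and 6.53 CPM at P0. Again the E15.5 libraries lay above all others, replicate 1 at 42.7% of the mean of replicates 2 and 3. The log2 difference was 3.79 (SE 0.46) for E15.5 against E14.5 and -2.30 (SE 0.44) for E16.5 against E15.5.

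Cdc20b is a relative of the cell-cycle protein Cdc20, is found with deuterosomes and hosts the miR-449 genes. Its level was 0.172, 0.113 and 0.445 CPM at E13.5, 1.29, 0.242 and 0.870 CPM at E14.5, 10.2, 18.3 and 17.9 CPM at E15.5, 2.44, 4.20 and 3.03 CPM at E16.5, and 1.19, 3.87 and 1.96 CPM at P0. At E13.5 these levels rested on 8 to 30 counts. For E15.5 against E14.5 the log2 fold change was 4.27 (SE 0.66), and for E16.5 against E15.5 it was -2.26 (SE 0.61).

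Deup1 builds the deuterosome, the platform on which a multiciliated cell makes its centrioles. It stood at 0.301, 0.211 and 1.04 CPM at E13.5, 3.16, 0.620 and 2.19 CPM at E14.5, 26.9, 58.4 and 64.4 CPM at E15.5, 13.1, 9.62 and 9.91 CPM at E16.5, and 7.60, 16.3 and 9.53 CPM at P0. No other gene of the 10 had a larger ratio of stage means between E14.5 and E15.5, 25.1, or between E13.5 and E15.5, 96.5. The fitted log2 change was 4.65 (SE 0.69) for E15.5 against E14.5 and -2.20 (SE 0.62) for E16.5 against E15.5. Cep63, the paralogue of Deup1 in ordinary centriole duplication, stood at 27.6 ± 1.48, 35.7 ± 5.86 and 36.5 ± 7.71 CPM (SD, n = 3) at E14.5, E15.5 and E16.5.

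Ccno, Mcidas and Cdc20b are neighbours on the plus strand of chromosome 13, at chr13:112987802-112990777, chr13:112993845-113000394 and chr13:113035111-113091195 (GRCm38, the build of the table's coordinates), a span of 103 kb. The window of 200 kb to each side of the middle of Mcidas held 18 annotated genes, of which 7 reached 1 CPM in 3 libraries. Between E14.5 and E15.5 the stage means of Ccno, Mcidas and Cdc20b multiplied by 13.8, 14.2 and 19.3. The other 4 expressed genes had ratios of 1.27 (Plpp1), 0.765 (Mtrex), 0.634 (Dhx29) and 1.45 (Gpx8). Gpx8, which encodes a peroxidase of the endoplasmic reticulum, lies inside Cdc20b on the opposite strand, and the counting was stranded. From E16.5 to E15.5 the ratios were 4.93, 6.97 and 4.80 for the regulators and 0.649 to 1.10 for the other 4 genes.

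**Figure D3:**
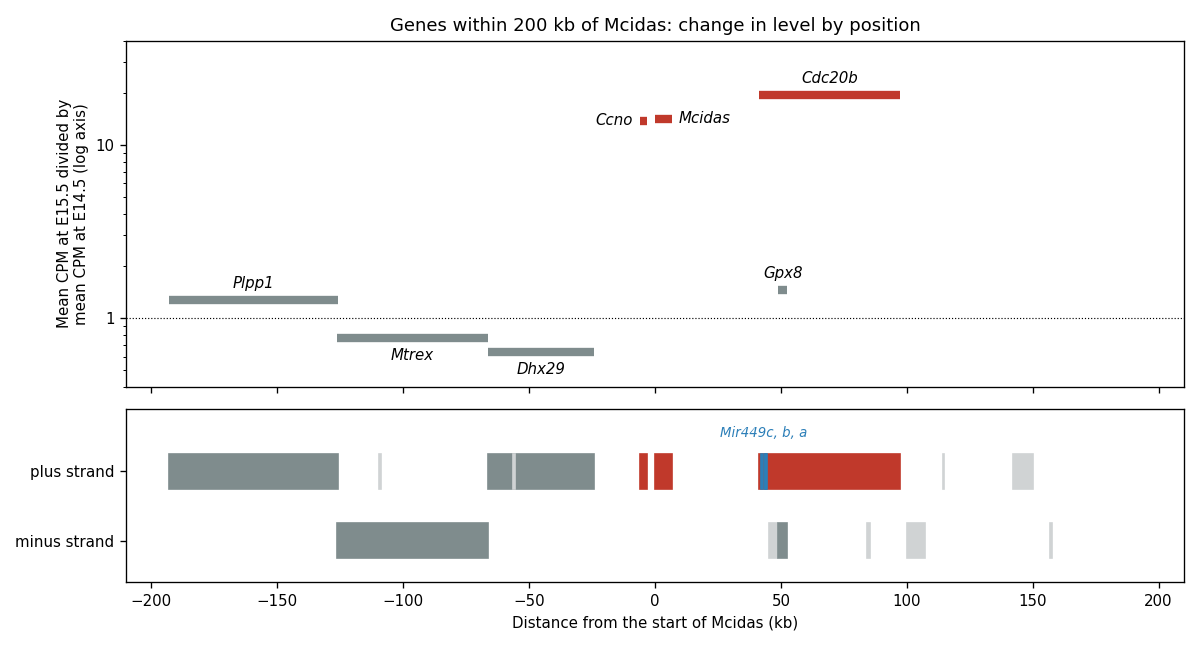
Upper panel: mean CPM at E15.5 divided by that at E14.5 (log axis) for the 7 expressed genes near Mcidas, each drawn over its extent in kb from the start of Mcidas. Lower panel: all 18 annotated genes by strand, with the 3 regulators in red, the Mir449 genes in blue and unexpressed genes in light grey; the red genes lie at ratios of 13.8 to 19.3 and the grey at 0.634 to 1.45.

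The 3 genes Mir449a, Mir449b and Mir449c lie in an intron of all 5 annotated Cdc20b transcripts, and their microRNAs are known to promote multiciliated cell formation. Reads over their precursors summed to 19, 27 and 42 counts in the E15.5 libraries and to 0 to 8 counts in each library of the other stages. Reads of the Cdc20b intron and of the microRNA precursors cannot be told apart here, and neither measures the mature microRNA. The mature sequences that RefSeq gives (GRCm38.p6) are shown with those of the related miR-34 genes, because all 4 carry the same seed, bases 2 to 8, in capitals.
mmu-miR-449a-5p: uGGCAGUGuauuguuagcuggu
mmu-miR-449c-5p: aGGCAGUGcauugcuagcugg
mmu-miR-34a-5p: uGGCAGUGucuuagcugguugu
mmu-miR-34b-5p: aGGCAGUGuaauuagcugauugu

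Most other centriole assembly genes act in dividing and multiciliated cells alike, and 13 of them were listed. For E15.5 against E14.5, 3 of 13 rose and 0 fell in edgeR's test, where 12.7% of all tested genes were called higher, and the list's median log2 fold change was 0.57. They were Ccdc78, Poc1a and Spice1. Ccdc78, a deuterosome protein, had 0 to 5 counts in each E14.5 library and 272, 954 and 945 counts at E15.5 (edgeR adjusted p 2.62e-05 to 0.00134 over the fits that leave out 1 library each). Poc1a, a centriole-stabilising protein, rose by 1.01 (SE 0.19, edgeR adjusted p 0.00251 to 0.0254 over the same fits). Spice1 rose by 0.59 (SE 0.15), a call lost without E14.5 replicate 1 or 2 or E15.5 replicate 2 or 3. Without E14.5 replicates 1 and 3 together 1 of the 13 was called.

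After E15.5 the values of Ccdc78 and Deup1 diverged, a difference between the genes that was not tested. Ccdc78 stood at 21.3 ± 7.94 CPM at E16.5 and 33.0 ± 13.9 CPM at P0 (SD, n = 3), against 10.8 ± 5.41 CPM at E15.5, while Deup1 was at 10.9 ± 1.93 and 11.2 ± 4.59 CPM, against 49.9 ± 20.2 CPM. For P0 against E15.5 Ccdc78 rose by 1.61 (SE 0.50, edgeR adjusted p = 0.0372), a call lost without P0 replicate 1 or 2, E13.5 replicate 1 or any E15.5 library. In the same comparison 6 of 13 centriole genes fell, with 10.8% of all genes called lower. Sass6, the cartwheel protein that sets the symmetry of a new centriole, fell by 1.14 (SE 0.21, edgeR adjusted p 0.00194 to 0.0191 without each library in turn). Plk4, the kinase that starts duplication, also fell by 1.14 (SE 0.30, adjusted p = 0.0182), a call lost without E15.5 replicate 2 or 3 or P0 replicate 1 or 2. With only the 6 libraries of these 2 stages in the fit, 1 of 13 passed.

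Genes of cell division were set beside them. Of 9 proliferation genes 5 fell from E15.5 to P0, beside 10.8% of all tested genes called lower. The largest change was that of Bub1, a spindle checkpoint kinase, which fell by 1.51 (SE 0.24, edgeR adjusted p 0.000883 to 0.0114 without each library in turn), followed by Ccnb1 at -1.02 and Top2a at -0.97. With the 6 libraries alone 1 of 9 passed. Ccnb1 and Top2a lost their calls without E15.5 replicate 2 or 3 or P0 replicate 1 or 2. For E16.5 against E15.5, 0 of 9 passed in edgeR, against 1.41% of genes overall. Before adjustment 7 of the 9 had a p under 0.05 in edgeR, beside 4830 of all 22151 tested genes, and DESeq2 passed 1. For E15.5 against E14.5 both tools called 0 of 9, with 0 at an unadjusted p under 0.05 in edgeR. What part dividing cells had in the course of the centriole genes was not tested.

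Foxj1 is the forkhead factor that governs motile cilium genes. Its libraries held 8.81, 12.97 and 9.55 CPM at E13.5, 47.2, 18.3 and 26.6 CPM at E14.5, 81.5, 181 and 197 CPM at E15.5, 122, 91.6 and 82.8 CPM at E16.5, and 110, 167 and 95.2 CPM at P0. Each step up to E15.5 separated all libraries, and from E15.5 on the 3 stages overlapped. On the log2 scale E14.5 exceeded E13.5 by 1.56 (SE 0.38) and E15.5 exceeded E14.5 by 2.32 (SE 0.39), while E16.5 differed from E15.5 by -0.63 (SE 0.37).

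Myb, a transcription factor best known in blood progenitors and dividing cells, acts early in multiciliated differentiation. It measured 6.36, 11.4 and 6.92 CPM at E13.5, 6.65, 5.66 and 7.03 CPM at E14.5, 20.1, 41.3 and 42.3 CPM at E15.5, 12.1, 14.4 and 17.4 CPM at E16.5, and 9.21, 26.2 and 19.7 CPM at P0. All E15.5 libraries were above those of E14.5 and E16.5, and they overlapped with P0. The log2 fold change was 2.42 (SE 0.39) for E15.5 against E14.5 and -1.24 (SE 0.37) for E16.5 against E15.5. The 8 erythroid and blood progenitor markers, led by Hbb-bt and Alas2, summed to 92.2 to 224 CPM at E14.5 and 203 to 466 CPM at E15.5, and their part in the level of Myb was not tested.

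Trp73 encodes p73, which acts on Foxj1 and other ciliary genes and is also made by forebrain neurons. The level was 4.76, 7.72 and 10.1 CPM at E13.5, 9.98, 6.96 and 8.02 CPM at E14.5, 9.87, 26.2 and 35.6 CPM at E15.5, 12.3, 16.2 and 26.8 CPM at E16.5, and 7.04, 14.997 and 28.5 CPM at P0. The E15.5 libraries were the most spread and overlapped with every other stage. For E15.5 against E14.5 the log2 fold change was 1.52 (SE 0.53).

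Rfx2 and Rfx3 belong to the family that binds the X-box, a sequence found before many ciliary genes. Rfx2 stood at 11.4, 11.5 and 10.7 CPM at E13.5, 11.3, 10.1 and 11.6 CPM at E14.5, 11.1, 21.1 and 20.9 CPM at E15.5, 23.1, 17.7 and 16.8 CPM at E16.5, and 18.2, 30.4 and 23.1 CPM at P0. Rfx3 stood at 47.6, 62.7 and 33.0 CPM at E13.5, 72.6, 48.9 and 43.4 CPM at E14.5, 20.2, 43.6 and 39.1 CPM at E15.5, 13.03, 18.4 and 26.4 CPM at E16.5, and 7.54, 29.7 and 22.2 CPM at P0. The pair thus ran in opposite directions: all Rfx2 libraries of P0 lay above those of E13.5 and E14.5, and all Rfx3 libraries of P0 lay below them. At P0 the mean of Rfx3 was 36.1% of its E14.5 mean. Reln, a marker of early forebrain neurons, stood at 162, 77.6 and 53.3 CPM at E14.5 and at 34.7, 35.9 and 23.4 CPM at E15.5. What part brain tissue had in the course of Rfx3 was not tested.

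Among 6 further ciliary transcription factors, Foxn4 and Fank1 rose and Rfx4 fell from E14.5 to E15.5, beside 12.7% of all tested genes called higher and 13.4% called lower. Without E14.5 replicates 1 and 3 together, 0 of the 6 were called. Foxn4, which in frog skin works beside Foxj1, stood at 1.99, 0.605 and 0.730 CPM at E14.5 and 6.45, 14.02 and 14.4 CPM at E15.5, a log2 rise of 3.39 (SE 0.81, edgeR adjusted p = 0.0108). At E16.5 it stood at 2.69 ± 0.20 CPM (SD, n = 3). From E15.5 to P0 it fell by 2.81 (SE 0.80, edgeR adjusted p = 0.0254), and the call was lost without any P0 library or E15.5 replicate 2 or 3. Fank1 rose by 1.77 (SE 0.44, edgeR adjusted p = 0.0135), a call lost without E14.5 replicate 2 or E15.5 replicate 2 or 3. Rfx4, an RFX factor of the developing brain, fell by 4.53 (SE 0.91, edgeR adjusted p 0.00148 to 0.0284 without each library in turn), from 24.0 ± 8.96 CPM to 1.04 ± 0.25 CPM, and all E15.5 libraries were below those of E14.5 in Reln too. Noto was at 0 in all libraries and Rfx6 was at or under the floor.

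The start sites of 9 of the 10 genes were in the RefSeq table (GRCm38.p6), as windows from 250 bases before to 50 bases after the start. They were searched on both strands for the X-box, written as GTNNCC and GNNAC with 3 bases between them, and for GTTGCC, a shorter RFX motif that can lie within it. The X-box letters occur in 4.62% of the 32851 windows in the table and GTTGCC in 12.5%. Ccno holds an X-box before its start, Deup1 holds an X-box before the more downstream of its 2 RefSeq starts, and Rfx2 holds an X-box after it. Mcidas, Trp73 and Rfx3 hold the shorter motif without an X-box. For the neighbours Ccno and Mcidas, whose levels had a like course, a stretch of the window is printed, 5′ to 3′, with these motifs in capitals. That of Ccno ends at the RefSeq start, and that of Mcidas ends short of it, at the start in the count table's annotation. They span chr13:112987552-112987801 for Ccno and chr13:112993618-112993844 for Mcidas, both on the plus strand.
Ccno: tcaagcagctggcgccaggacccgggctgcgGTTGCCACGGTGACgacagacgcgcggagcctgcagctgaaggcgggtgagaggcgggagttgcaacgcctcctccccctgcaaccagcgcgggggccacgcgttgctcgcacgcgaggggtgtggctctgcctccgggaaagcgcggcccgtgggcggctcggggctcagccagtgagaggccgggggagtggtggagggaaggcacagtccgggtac
Mcidas: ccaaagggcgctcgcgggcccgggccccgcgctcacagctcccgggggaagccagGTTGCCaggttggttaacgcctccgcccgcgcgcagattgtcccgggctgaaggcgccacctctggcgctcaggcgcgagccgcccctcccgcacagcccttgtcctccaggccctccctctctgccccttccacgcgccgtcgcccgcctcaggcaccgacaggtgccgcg

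The X-box of Deup1, on the minus strand of chromosome 9, is shown in 30 bases beside the same length around that of Ccno, since these are the genes with an X-box before a RefSeq start. It lies at chr9:15627912-15627941. The Deup1 X-box is downstream of the other RefSeq start of the gene and begins at the first base of Deup1, 15627933, in the count table's annotation.
Deup1: gaggccgcGTCTCCATGGCAACccactggg
Ccno: gggctgcgGTTGCCACGGTGACgacagacg

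A match of letters is no evidence of binding, and no binding was measured. In the same windows GCGGGAA, an E2F motif found in 4.60% of all windows, occurred in those of Deup1, Trp73 and Cdc20b. The forkhead motif TGTTTAC, found in 3.65%, occurred in that of Myb.

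In bulk tissue, fewer cells of a type and less RNA per cell cannot be told apart, so each gene was also set against Foxj1 within each library. Per 100 Foxj1 counts, Deup1 had 33.0, 32.3 and 32.7 counts in the E15.5 libraries and at most 11.96 in any library of the other stages. Ccno had 19.5, 20.2 and 19.4 counts, with at most 16.2 elsewhere, and Mcidas had 13.5, 12.7 and 11.5, with at most 9.02 elsewhere. Cdc20b had 12.5, 10.1 and 9.08, with at most 4.67 elsewhere. These ratios varied less over the E15.5 libraries than the levels did: in replicate 1 the CPM of the 4 genes was 42.7 to 56.4% of the mean of replicates 2 and 3, and that of Foxj1 was 43.2%. At E16.5 Mcidas was down to 2.07, 2.81 and 3.63 counts per 100 Foxj1 counts and Deup1 to 10.7, 10.5 and 11.96.

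The ratio of Gmnc to Foxj1 had its highest mean earlier, at E14.5. Gmnc had 15.2, 10.4 and 14.9 counts per 100 Foxj1 counts at E14.5, and 1.72, 3.08 and 2.71 at E15.5. The libraries of these stages did not overlap, and E14.5 replicate 2, with few choroid plexus markers, had 10.4. Over this step Gmnc itself held 94.1% of its mean CPM while that of Foxj1 multiplied by 4.98. The fall of the ratio thus lay in Foxj1 and does not place Gmnc before the others. At E13.5 the ratio ranged from 4.56 to 17.9 on 42 to 115 Gmnc counts and overlapped with E14.5. Myb, Trp73, Rfx2 and Rfx3 had their highest ratios at E13.5, when Foxj1 was lowest.

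**Figure D4:**
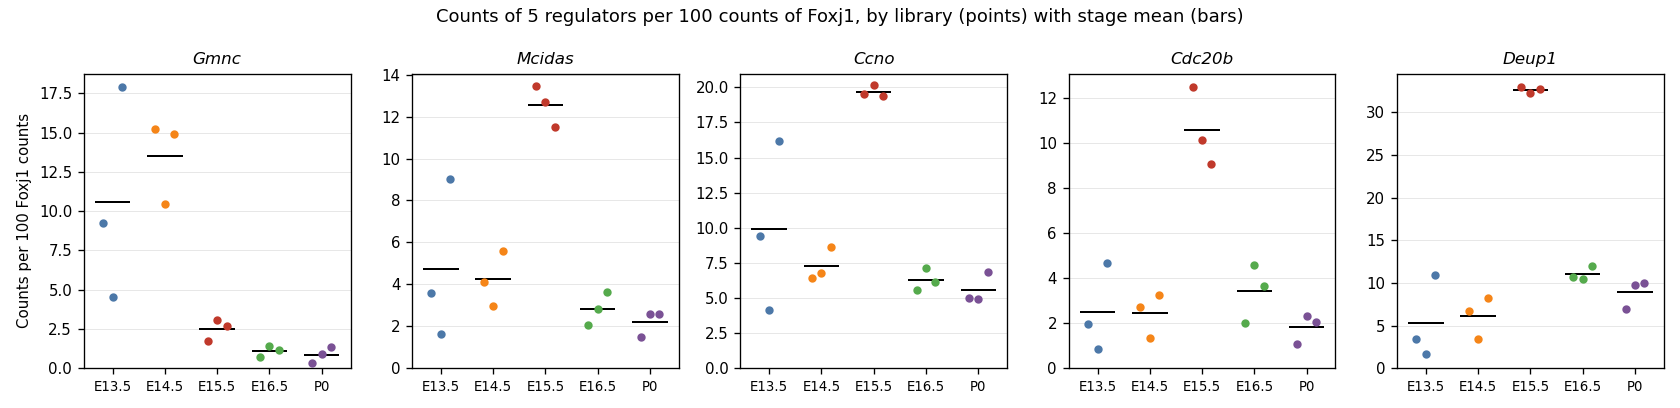
Counts of Gmnc, Mcidas, Ccno, Cdc20b and Deup1 per 100 counts of Foxj1 in each of the 15 libraries (points, coloured by stage) with the stage mean (black bars), on linear axes from 0. The E15.5 points of Deup1 lie between 32.3 and 33.0, above the highest other point at 11.96, and those of Gmnc lie below all E14.5 points.

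Set against Epcam, a surface protein of epithelial cells, the E15.5 libraries again exceeded all others for Mcidas, Ccno, Cdc20b, Deup1 and Myb. The share of all tested genes that did so was not computed. Mcidas had 34.3, 17.2 and 17.9 counts per 100 Epcam counts at E15.5, and 2.23 to 4.37 at E16.5. Here E15.5 replicate 1 was the highest, not the lowest, of its stage. The number of genes with the highest mean at E15.5 was again 7 of 10, and Rfx2 had its highest at E16.5.

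The choroid plexus signal of the E14.5 libraries moved with several regulators. From replicate 2 to the mean of replicates 1 and 3, Foxj1 went from 18.3 to 36.9 CPM, Gmnc from 1.91 to 5.58 CPM, Mcidas from 0.545 to 1.72 CPM and Deup1 from 0.620 to 2.68 CPM. Across the same libraries Ttr, the transport protein that defines the choroid plexus, went from 8.64 to 1224 and 673 CPM, and Clic6, a chloride channel protein, from 12.6 to 72.1 and 48.7 CPM. In the E15.5 libraries Ttr was at 0.737 to 6.82 CPM and the 9 markers summed to 33.1 to 115 CPM, of which Clic6 alone gave 15.7, 72.9 and 70.7 CPM.

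At P0, replicate 2 had the highest choroid plexus marker sum of its stage, 496 CPM against 63.1 and 261 CPM. It also had the highest level of 9 of the 10 regulators, all but Trp73. Among the surface epithelium markers Cdh1, Krt8 and Krt18 were highest in replicate 2 too, Krt8 at 372 CPM against 197 and 136 CPM. Epcam, Krt5, Krt14 and Trp63 were highest in replicate 3. What part choroid plexus tissue or epithelium had in the P0 levels was not tested.

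Leaving out E14.5 replicates 1 and 3 moved the early part of the course. The log2 fold change of E14.5 against E13.5 went from 1.52 to 0.22 for Mcidas, from 1.94 to 0.24 for Deup1, from 1.71 to -0.02 for Cdc20b, from 1.17 to 0.33 for Ccno, from 1.56 to 0.79 for Foxj1 and from 2.07 to 0.85 for Gmnc. For E15.5 against E14.5 it became larger, from 3.82 to 5.14 for Mcidas, from 4.65 to 6.36 for Deup1 and from 2.32 to 3.10 for Foxj1. Gmnc turned from -0.09 to 1.14, and its highest mean moved to E15.5, where 8 of 10 genes then had theirs. With replicate 2 alone, the only regulators more than 1.5 times their E13.5 mean at E14.5 were Gmnc, at 1.84 times, and Foxj1, at 1.75 times. The lone E14.5 library is assumed to vary as the other groups do. Without E13.5 replicate 3 the log2 fold change of E15.5 against E13.5 went from 6.59 to 7.59 for Deup1. For Cdc20b it went from 5.98 to 6.73. In that library choroid plexus markers summed to 152 CPM, against 39.4 and 56.6 CPM in the other libraries of E13.5. Its surface epithelium markers also had the highest sum of the stage, at 574 CPM against 317 and 253 CPM. What part choroid plexus tissue or epithelium had in these levels was not tested.

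**Figure D5:**
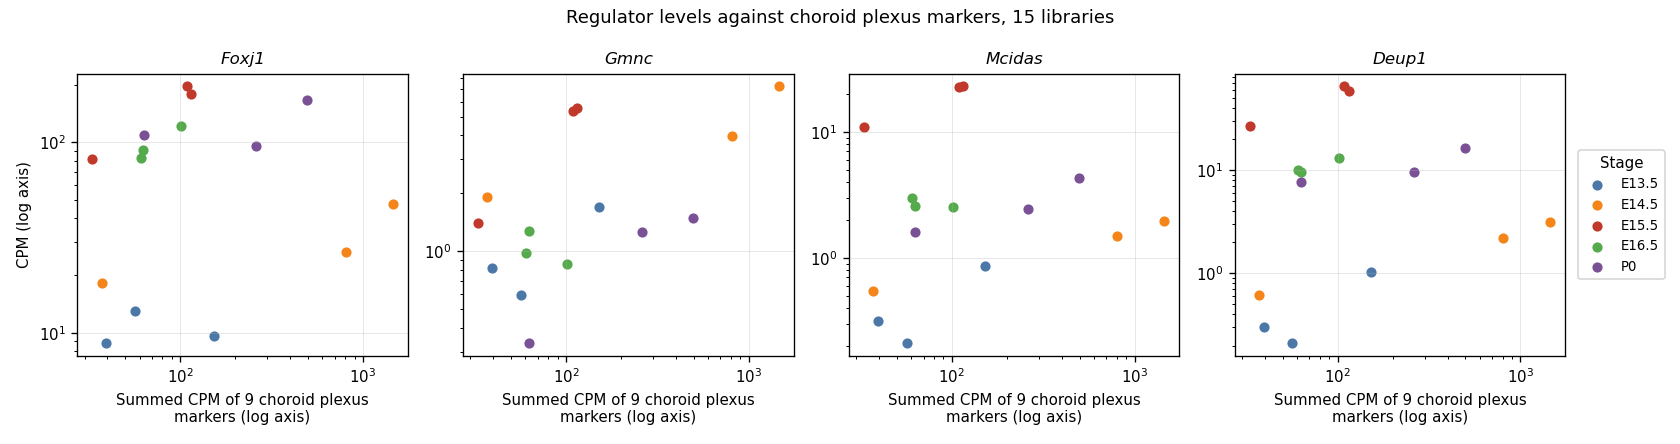
Level of Foxj1, Gmnc, Mcidas and Deup1 in CPM against the summed CPM of 9 choroid plexus markers (both log axes) in the 15 libraries, coloured by stage. The E14.5 points spread from 37.2 to 1456 CPM of markers and are higher where those are higher, while the E15.5 points lie at 33.1 to 115 CPM.

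Counts of passing genes over the 10 regulators are given beside those over all genes, and nothing is read from them since the genes were chosen on these contrasts. For E14.5 against E13.5, 0 of 10 passed in edgeR, where 0.00903% of all tested genes passed. Before adjustment 6 of 10 had a p under 0.05 in edgeR, beside 3538 of all 22151 tested genes. DESeq2 passed 3, and its share over all genes was not computed for this or any other comparison. For E15.5 against E14.5, 6 of 10 passed as higher, beside 12.7%, and 0 as lower, beside 13.4%. For E15.5 against E13.5, 8 of 10 passed as higher, all but Rfx2 and Rfx3, beside 13.7%, and 0 as lower, beside 9.17%. There Gmnc was lost in 8 and Trp73 in 7 of the 15 fits that leave out 1 library. For E16.5 against E15.5, 2 of 10, Mcidas and Ccno, passed as lower, beside 0.379%, and 0 passed as higher, beside 1.03%, with 1.41% of genes passing in either direction. DESeq2 passed 6, and both were lost without any E16.5 library, E13.5 replicate 1 or E15.5 replicate 2 or 3, and Mcidas also without E14.5 replicate 1 or 3 or E15.5 replicate 1. For P0 against E16.5, 0 of 10 passed in either tool, with 0 at an unadjusted p under 0.05 and 0.352% over all genes (0.19% higher, 0.163% lower). For P0 against E15.5, 5 of 10 (Mcidas, Ccno, Gmnc, Cdc20b and Deup1) passed as lower, beside 10.8%. Of these Deup1 was lost without E15.5 replicate 2 or 3 or P0 replicate 1 or 3, and Gmnc was lost in all but 4 of the 15 fits that leave out 1 library. These comparisons share their E15.5 or E16.5 libraries and are not independent of each other.

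By plain separation of libraries, 2 of 10 regulators (Gmnc and Foxj1) had all E14.5 libraries above all E13.5 libraries, beside 15.5% of tested genes, and 0 of 10 lay below, beside 13.7%. From E14.5 to E15.5 it was 6 of 10 beside 24.0%, and from E15.5 to E16.5 it was 6 of 10 lower, beside 15.5%. From E16.5 to P0 it was 0 of 10 in either direction, beside 6.23% higher and 5.39% lower.

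Per length, as CPM per kb of exon, Foxj1 led at E15.5 with 58.3 ± 23.8 (SD, n = 3), and its lowest library exceeded the highest of any other regulator. Deup1 followed with 15.1 ± 6.09, then Ccno with 11.8 ± 4.84, Cdc20b with 8.46 ± 2.49 and Mcidas with 7.92 ± 2.86. Rfx2, Trp73, Myb and Rfx3 lay between 3.11 and 5.28, and Gmnc was at 0.714 ± 0.408. From Deup1 down to Rfx3 each gene overlapped with the next over its libraries, and Gmnc lay below Rfx3 in all.

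Over the 15 libraries the genes most like Mcidas in log2 CPM were Cdc20b (Pearson r = 0.985), Ccno (0.983) and Deup1 (0.963), the leading 3 of all tested genes, then Dnah8 (0.954) and Efhc2 (0.937). Dnah8 encodes an axonemal dynein heavy chain and Efhc2 a protein of axonemal microtubules. Foxj1 ranked 51 in that order (r = 0.844), while Gmnc had an r of 0.501. Most like Foxj1 were 1700003E16Rik (0.992), Nek11 (0.984), Cfap52 (0.984), Zmynd10 (0.982) and Map3k19 (0.981). Cfap52 and Zmynd10 serve the axoneme and dynein assembly, and Nek11 is a kinase of the NIMA family. With Spearman's rho 3 and 2 of the 5 genes were shared. All points share stage and tissue makeup, so the values are a description.

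Motile axoneme genes build the beating shaft of the cilium, and this list too was chosen with earlier results of these data known. Of 38 listed, 36 rose and 0 fell from E14.5 to E15.5 in edgeR's test, beside 12.7% of all genes called higher, with a median log2 fold change of 2.63. Dnah3, an inner-arm dynein, rose by 5.56 (SE 0.74, edgeR adjusted p 0.000434 to 0.0032 without each library in turn), Dnaaf1, a dynein assembly factor, by 5.05 (SE 0.52) and Dnah12 by 4.99 (SE 0.67). Dnah9 and Gas8 were the only ones that did not pass. With E14.5 replicate 2 as the only library of its stage 21 passed. From E15.5 to E16.5, 0 of 38 passed in edgeR, beside 1.41% of all tested genes, and the median was 0.18. Before adjustment 1 of 38 had a p under 0.05 in edgeR, beside 4830 of all 22151 tested genes, and DESeq2 passed 1. At E16.5 Mcidas, Ccno, Cdc20b and Deup1 stood at 14.4 to 21.8% of their E15.5 means. Of these, Cdc20b and Deup1 did not pass in edgeR either. At P0 Tppp3, a tubulin-binding protein, and Dnah9, an outer-arm dynein, were above E15.5 by 1.51 and 1.81 (edgeR adjusted p = 0.00449 and 0.0288), the latter lost without E15.5 replicate 1 or 3 or P0 replicate 2. The summed level of the 38 genes ran from 634 to 1191 CPM at E15.5 and from 1189 to 2560 CPM at P0.

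Markers of secretory cells of the airway lining were also compared over the same days. The 10 airway secretory markers, with Bpifa1 and Muc5b reaching the highest levels, summed to 16.8, 15.7 and 24.2 CPM at E14.5, 85.5, 511 and 561 CPM at E15.5 and 2503, 654 and 618 CPM at E16.5. E16.5 replicate 1 stood apart, and Scgb3a1, a secretoglobin singled out after its values were seen, was at 476 CPM in it against 0.498 and 0.783 CPM in the other E16.5 libraries. Replicate 1 of E15.5 was low in the secretory sum, as it was in the regulators, while its choroid plexus sum of 33.1 CPM was the lowest of all libraries. The sums of the 7 olfactory neuron markers were less apart, at 153, 211 and 198 CPM in the E15.5 libraries. Gnal, at 101, 61.9 and 49.9 CPM, made up much of these sums and was the only marker highest in replicate 1. All other markers of the list were lowest in replicate 1, among them Omp at 0.640, 30.3 and 29.9 CPM. Whether E15.5 replicate 1 held less nasal lining was not tested.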

How the data were processed

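Total RNA was sequenced from 15 wild-type palate libraries, 3 per stage. The deposited values are raw fragment counts per gene, made by the authors with featureCounts from Subread 2.0.1, with reverse-strand counting of read pairs against GENCODE M18, per the file headers. The BAM files were trimmed with cutadapt and duplicate-marked, per the file headers. HISAT2 2.2.1, Bowtie2, SAMtools 1.12, cutadapt 3.4, FastQC 0.11.9 and the build mm10 (GRCm38) are named in the submitters' processing notes, with no role given. Gene lengths in the same deposited table are exon lengths from that annotation.

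Symbols were taken by gene ID from GENCODE M21, which shares 52480 versioned IDs with the table, all with the same start and end. Genes with enough counts by edgeR's filterByExpr (minimum count 10) were tested in edgeR 4.0.16 with TMM scaling and the quasi-likelihood test over all 15 libraries, with Benjamini-Hochberg adjustment over 22151 genes and a threshold of 0.05. DESeq2 1.42.0 and limma 3.58.1 ran in R 4.3.3, the former as an alternative. The fit was tested on simulated data. Log2 CPM for likeness used a prior count of 2. The regulators and gene lists were chosen with earlier results of these data known.

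The text names all 10 regulators, the called genes with the largest fold changes of each list (at most 3 per comparison), or the 2 most abundant where none was called, the 2 genes of each marker list with the highest CPM in any library, the 5 genes most like Mcidas and Foxj1, and the expressed neighbours of Mcidas. Cep63, Epcam and Scgb3a1 were chosen after their values were seen. Between genes, levels were compared per kb of exon.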

Additional observations from a re-analysis of the deposited data

How the results depend on the processing

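Under other settings 1380 fold changes of the regulators were compared with the main fit. Of these, 1365 moved by less than the pooled within-stage SD of log2 CPM, and 15 moved further. Among fold changes called in the main fit 0 changed sign. For the others sign changes, such as that of Gmnc given above, were not counted. The number with the highest mean at E15.5 was 7, and 6 to 8 leaving out 1 library each. The number of regulators passing was 6 (6 to 8) for E15.5 against E14.5, 8 (6 to 9) against E13.5, 2 (0 to 2) for E16.5 against E15.5, 5 (3 to 6) for P0 against E15.5, and 0 (0 to 0) for E14.5 against E13.5 and P0 against E16.5. Over the 72 genes of the 5 lists the same ranges were 42 (34 to 44), 43 (37 to 44), 0 (0 to 7), 17 (6 to 31), 0 (0 to 0) and 0 (0 to 0). DESeq2 passed 3 regulators and 11 list genes for E14.5 against E13.5, 6 and 10 for E16.5 against E15.5, and 28 list genes for P0 against E15.5. With only the 6 libraries compared, 0 regulators passed for E16.5 against E15.5 and 4 list genes for P0 against E15.5. Without E14.5 replicates 1 and 3, a setting chosen after seeing the data like that per Epcam, 0 regulators passed for E16.5 against E15.5 and 22 list genes for E15.5 against E14.5. For E16.5 against E15.5, DESeq2 size factors, upper-quartile scaling and a mean of at least 1 CPM each passed 1 list gene. The replicate block passed 1 list gene for E14.5 against E13.5 and 8 for E16.5 against E15.5. The cause of the changes between settings was not tested. Of 30 same-number pairs of libraries 9 had a correlation over 0.1, and all 30 ranged from -0.303 to 0.548. The highest were those of replicates 3 at E13.5 and E14.5, 0.548, and of replicates 1 at E15.5 and P0, 0.538. Pairs of different numbers were not compared, so whether replicate numbers pair the libraries was not settled. Summed over tested genes, replicates differed by 31.6 to 231 times sampling noise (chi-square per degree of freedom over 15 pairs). In that sum abundant genes weigh most, and it was not computed for the regulators alone. For abundant genes the number of libraries thus limits the precision, which need not hold for genes near the floor.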
